A study of Drosophila melanogaster with 6 samples.

Results

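On the chromosome arms 2L, 3L and 3R, 919 Gcn5 sites were called in Kc cells with GFP RNAi and in S2 cells with GFP RNAi, but not in Kc cells with CP190 RNAi. They were chosen by whether a peak was present in each of the 3 deposited peak lists. The peaks of the 3 lists were pooled, and peaks that overlapped by at least 1 bp were merged into 4608 union regions on these arms, of 7972 on all sequences. A region counted as one of the 919 when it held a Kc GFP RNAi peak and an S2 GFP RNAi peak and no CP190 RNAi peak. These regions are called lost sites below, a name for a missing peak call and not a measured loss of binding. The 885 regions with a peak in all 3 lists are called kept sites.

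The 3 conditions were the embryo-derived Drosophila melanogaster lines Kc with double-stranded RNA against GFP, Kc with double-stranded RNA against CP190, and S2 with double-stranded RNA against GFP. GFP is not a fly gene, so its RNAi served as the control. Cells were grown at 25 °C and given 90 µg of double-stranded RNA for every 6000000 cells. After fixation in 1% formaldehyde, each immunoprecipitation took 5 µg of a rabbit polyclonal antibody to Gcn5. Each condition had 1 library, so no difference below has a replicate check and no p-value is given. The input libraries, any CP190 RNAi in S2 cells and the CP190 protein level were not analysed here, so how far CP190 was depleted was not checked.

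Gcn5 is the histone acetyltransferase of the SAGA and ATAC complexes, coactivators that acetylate histone tails at promoters and enhancers. CP190 is a BTB and zinc-finger protein that DNA-binding insulator proteins such as CTCF and Su(Hw) bring to chromatin, and it also sits at many active promoters. Insulators separate regulatory domains, and the title of the series sets the question of how far CP190 mediates the binding of Gcn5 to chromatin. The sources used here hold no dm3 genome or annotation, so sites are given by position and not by gene, and no sequence is shown.

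The lost sites made up 50.9% of the 1804 regions with a peak in both control lists (exact 95% interval 48.6 to 53.3%). The lists held 2873 Kc GFP RNAi, 3134 S2 and 2274 CP190 RNAi peaks on the arms, so the CP190 RNAi list was the shortest. Of all 2820 Kc GFP RNAi regions on these arms, 44.9% had no CP190 RNAi peak and 64.0% had an S2 peak. In the other direction, 499 regions held a CP190 RNAi peak alone. A further 157 held a CP190 RNAi and an S2 peak but no Kc GFP RNAi peak. Among the 1016 Kc GFP RNAi regions with no S2 peak, 347 (34.2%, 31.2 to 37.2%) had no CP190 RNAi peak. These shares follow from the peak calls that chose the sites and are given as a description. All intervals of shares cover counting error only, not the spread between libraries, and take regions as independent of their neighbours. On the single arms, 279 of 525 such regions were lost on 2L (53.1%, 48.8 to 57.5%), 302 of 604 on 3L (45.9 to 54.1%) and 338 of 675 on 3R (50.1%, 46.2 to 53.9%). Together the lost sites covered 1.41 Mb and the kept sites 2.15 Mb. Of the 919 lost sites, 902 consisted of 1 Kc peak and 1 S2 peak (98.2%). Of the 885 kept sites, 824 held 1 Kc GFP RNAi peak and 1 S2 peak (93.1%). Where a region held several peaks of a list, its highest-scored peak gave the width and score below.

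Lost sites were found among the strongest Gcn5 sites of either line. Scores are the authors' own, on a scale that the files do not state, and are compared only among peaks of the same list. Positions are 1-based on dm3 and are those of the Kc GFP RNAi peak, while gaps run from the edge of the whole region. The highest-scored lost site in Kc lay on 3R at 13440532 to 13443907. Its Kc peak was 3376 bp wide with a score of 1789.14, the highest of all Kc GFP RNAi peaks, and its S2 peak was 3658 bp wide with a score of 3100. The nearest CP190 RNAi peak was 8164 bp away. In S2, 4 peaks on these arms carried exactly this score of 3100, the highest there, 3 of them at lost sites, so their order was not resolved.

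The site at 3R 5693514 to 5695503 scored 1213.81 in Kc and 1888.96 in S2, and the nearest CP190 RNAi peak was 57781 bp away. The site at 3R 793747 to 797428 scored 1200.64 in Kc and 2864.05 in S2, where 2 peaks lay under the single Kc peak. The site at 3R 12481017 to 12482620 scored 1089.90 and 2058.65, with a CP190 RNAi peak 2407 bp off. These 3 sites were strong in both lists, and each was the only Kc GFP RNAi peak in its region.

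Of the next sites by Kc score, a pair lay on 2L, at 4344910 to 4346537 (1045.21 in Kc, 1850.26 in S2) and at 16223324 to 16225185 (982.49 and 2443.84). On 3L, the site at 9189333 to 9190525 was narrow, at 1193 bp in Kc and 1089 bp in S2, and its centres in the lines were 16 bp apart. It scored 1011.44 in Kc and 787.78 in S2, where it ranked 187 of the 919. The remaining 3 of the 10 highest Kc scores lay on 3R, at 3635345 to 3636816 (882.14), 24370027 to 24371457 (870.13) and 529913 to 532341 (864.45). Of these 10 sites, 7 lay on 3R, the arm that held 338 of all 919 lost sites.

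The 10 highest S2 scores among the lost sites held 4 of the same regions. The others showed that a site could lead in S2 and stand mid-list in Kc. At 3R 2273782 to 2275351 the S2 peak scored 3100 and the Kc peak 246.06, rank 322 of the lost sites. At 3R 12130448 to 12131567 the S2 peak also scored 3100, over 2 separate Kc peaks of which the higher scored 169.97, rank 453. The site at 3R 3468822 to 3470919 scored 2853.00 in S2 and 352.81 in Kc, with the nearest CP190 RNAi peak 93094 bp away. The sites at 2L 6356279 to 6357795 and 2L 5365391 to 5366683 were high in both lists, with S2 scores of 2617.34 and 2519.76 and Kc scores of 777.96 and 732.97. The site at 3L 18159931 to 18161860 scored 2611.74 in S2 and 527.46 in Kc. Over all 919 lost sites, the rank correlation of Kc and S2 scores was 0.58, and of the 100 highest by each score 45 were the same regions. Over the 885 kept sites the rank correlation was 0.48. These correlations describe regions that share the same 3 libraries and are not independent.

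Lost sites were narrower than kept sites in both cell lines. Widths and scores were not part of the rule, though a caller's threshold acts on them, so the values below are descriptions without a test. In the Kc GFP RNAi list the median width was 1116 bp for lost sites, with quartiles at 1003 and 1314.5 bp and a range of 549 to 7554 bp. For kept sites it was 1589 bp, with quartiles at 1263 and 2202 bp and a range of 713 to 7896 bp. In S2 cells, which had not been depleted of CP190, the lost sites measured 1143 bp at the median (968.5 and 1523.5 bp) and the kept sites 1764 bp (1276 and 2471 bp). The difference in medians was -473 bp in Kc and -621 bp in S2, lost minus kept. It was -422.5, -419.5 and -527.5 bp on 2L, 3L and 3R in Kc. Narrow peaks were not particular to lost sites. The median was 1133 bp in Kc for regions with a Kc GFP RNAi peak alone, and 1005 bp in S2 for regions with an S2 peak alone.

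**Figure D1:**
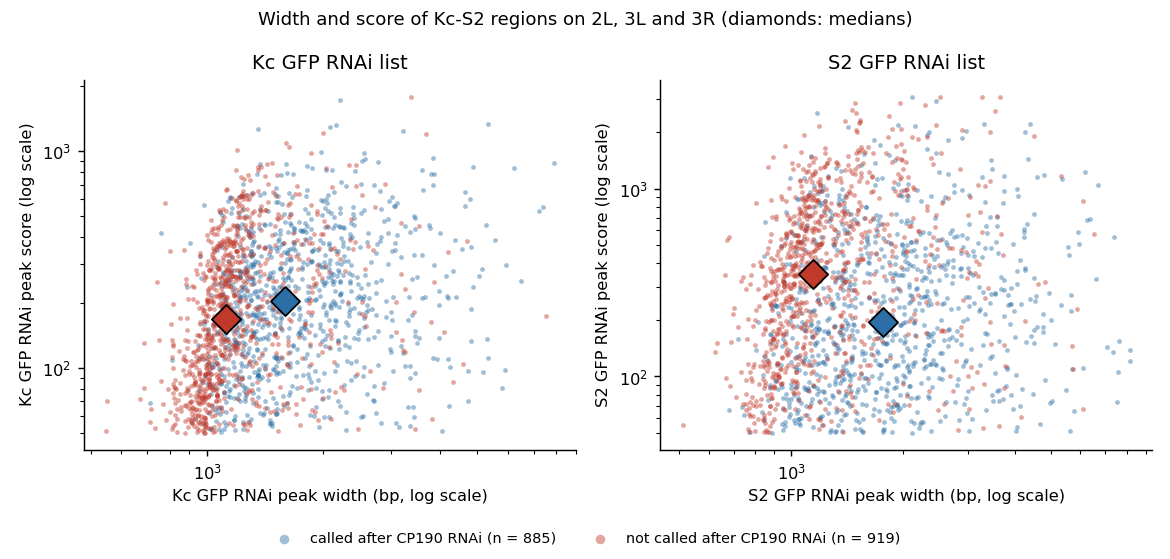
Peak width in bp against the authors' peak score, both on log axes, for the 919 lost sites (red) and the 885 kept sites (blue), in the Kc GFP RNAi list (left) and the S2 list (right); each point is 1 region and diamonds are medians. Lost sites form a narrow column near the median widths of 1116 bp in Kc and 1143 bp in S2, and lie lower than kept sites by median score in Kc but higher in S2.

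The share of lost sites followed width closely. When the 1804 Kc-S2 regions were split into 5 equal groups by Kc width, 323 of the 361 narrowest, up to 1045 bp, were lost (89.5%, 85.8 to 92.4%). Of the 361 widest, from 1999 bp, 66 were lost (18.3%, 14.4 to 22.7%). Split by S2 width, the lost share went from 80.6% (76.1 to 84.6%) in the narrowest group, up to 1017 bp, to 24.9% (20.6 to 29.7%) in the widest, from 2282 bp. Of the 245 regions with a Kc peak of at most 1000 bp, 19 were kept. Above 3000 bp in Kc, 23 lost sites remained.

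The width difference was present at every score level. Within the lowest Kc score quintile the median Kc width was 986.5 bp for 226 lost sites and 1357 bp for 135 kept ones. Within the highest quintile it was 1281 bp for 171 lost sites and 1963.5 bp for 190 kept ones. In the S2 list the difference within score quintiles ranged from -542.5 to -876.5 bp. Within groups of similar Kc width, regions with narrower S2 peaks were lost somewhat more often. In the second Kc width quintile, for example, 74.2% of the regions with the narrower S2 peaks (67.2 to 80.4%) and 63.7% of those with the wider ones (56.2 to 70.7%) were lost. In each of the 5 quintiles the narrower S2 peaks had the higher lost share, though the intervals overlapped in each. The quintiles were not combined, so whether counting error covers this common direction was not tested. A wide region also offers more bases for any CP190 RNAi peak to overlap, and the part of this in the width difference was not tested.

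The 5 lost sites with the widest Kc peaks went against this pattern. The widest lay at 3R 6022445 to 6029998, 7554 bp wide in Kc with a score of 174.18, while its S2 peak was 1069 bp wide with a score of 962. Its nearest CP190 RNAi peak was 51365 bp away. The next lay at 2L 16348968 to 16353664 (4697 bp in Kc, 5697 bp in S2), with a CP190 RNAi peak 1487 bp away. The other 3, at 2L 13499957 to 13504550, 3L 15499007 to 15503329 and 3L 12826846 to 12831037, had Kc widths of 4594, 4323 and 4192 bp.

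Lost sites had a higher median score than kept sites in S2, and a somewhat lower one in Kc that was less stable. In Kc, lost sites had a median score of 167.44 (quartiles 92.47 and 305.56) and kept sites 202.73 (113.25 and 337.15). In S2, lost sites had a median of 353.11 (163.055 and 692.54) and kept sites 194.36 (102.13 and 423.43). Lost minus kept was thus -35.29 in the Kc list (-59.58 to -8.21, from the 95% intervals of both medians) and 158.75 in the S2 list (100.44 to 207.87). The Kc difference was -10.18 (-45.7 to 14.43) among peaks with a score of 100 or more in both control lists, -29.345 (-84.47 to 35.54) on 2L and -7.44 (-53.82 to 29.03) on 3L. It was -54.765 (-97.44 to -7.58) on 3R, and its sign changed across groups of Kc width. The S2 difference lay between 139.215 and 164.125 on the single arms.

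**Figure D2:**
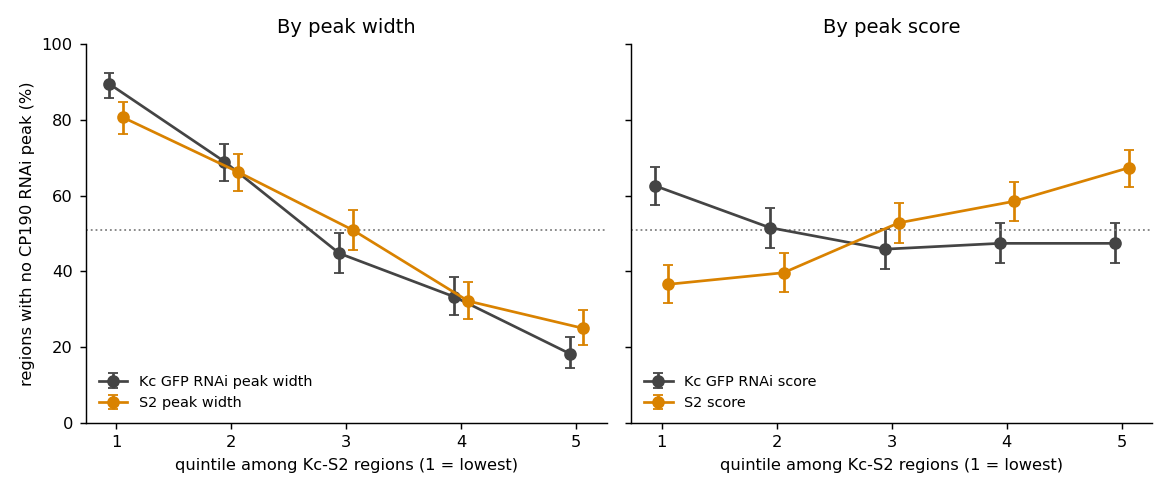
Share of the 1804 Kc-S2 regions with no CP190 RNAi peak in 5 equal groups by peak width (left) and by peak score (right), in the Kc GFP RNAi list (black) and the S2 list (orange); bars are exact 95% intervals for counting error and the dotted line is the overall 50.9%. The lost share drops with width in both lists, from 89.5% to 18.3% in Kc, while it rises with the S2 score and is highest in the lowest Kc score group.

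Across score quintiles, the lost share went from 62.6% (57.4 to 67.6%) at the lowest Kc scores to 47.4% (42.1 to 52.7%) at the highest. By S2 score it went the other way, from 36.6% (31.6 to 41.8%) to 67.3% (62.2 to 72.1%). Of the 100 Kc-S2 regions with the highest S2 scores, 74 were lost sites (64.3 to 82.3%), against 45 of the 100 with the highest Kc scores (35.0 to 55.3%). At a Kc score of 500 or more, 79 of 176 regions were lost (44.9%, 37.4 to 52.6%).

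Split by tertiles of both scores, the lost share ranged more widely than across the quintiles of either score. The groups in this split could be much smaller, so the ranges are not directly comparable. Among the 73 regions in the lowest Kc and the highest S2 score tertile, 56 were lost (76.7%, 65.4 to 85.8%). Among the 89 regions in the highest Kc and the lowest S2 tertile, 19 were lost (21.3%, 13.4 to 31.3%). With both scores in the highest tertile, 211 of 362 were lost (58.3%, 53.0 to 63.4%). The rise with S2 score was seen among narrow and wide Kc peaks alike. At or under the median Kc width of 1284.5 bp the lost share was 59.5% in the lowest S2 score tertile and 83.4% in the highest. Over that width it was 18.3% and 44.2%. By Kc score the same narrow peaks were lost at 74.4%, 70.3% and 77.2% from the lowest to the highest tertile, and the wide ones at 28.0%, 25.2% and 30.5%.

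Within narrower bands of Kc width the Kc score did go with the lost share in part of the range. At Kc widths of 1046 to 1195 bp it went from 48.3% of 60 regions in the lowest Kc score quintile (35.2 to 61.6%) to 85.2% of 54 in the highest (72.9 to 93.4%). In this band the median Kc score was 213.43 for lost and 140.43 for kept sites, and in the next, up to 1426 bp, it was 273.54 and 183.28. The direction was the opposite at the ends of the width range, with medians of 94.83 and 104.675 in the narrowest group and 216.705 and 249.4 in the widest. In S2, lost sites had the higher median score in all 5 width groups, by 84.225 to 372.81.

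**Figure D3:**
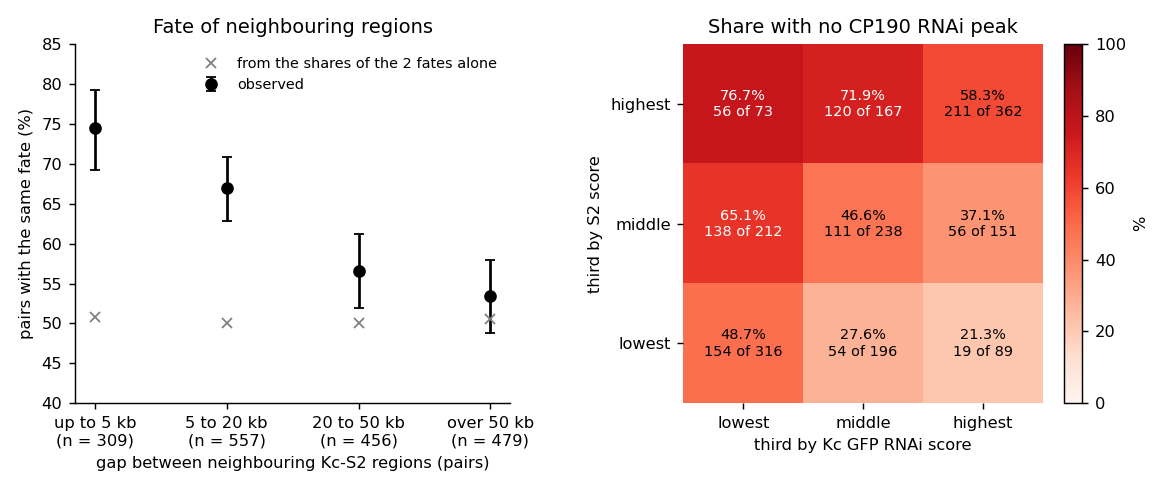
Left, share of neighbouring pairs of Kc-S2 regions on an arm that were both lost or both kept, by the gap between them, with exact 95% intervals; crosses give the share that follows from the fraction of lost regions alone. Right, share of regions with no CP190 RNAi peak by tertile of Kc GFP RNAi and S2 score, from 21.3% (Kc highest, S2 lowest) to 76.7% (Kc lowest, S2 highest). Pairs within 5 kb share their fate most often, at 74.4%.

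The 2 control lines placed the centre of a lost site at nearly the same point. The median distance between the Kc and S2 peak centres was 65.5 bp (quartiles 28.75 and 157.25 bp) for lost sites and 113 bp (42 and 305 bp) for kept sites. Centres lay within 100 bp at 64.0% of lost sites (60.8 to 67.1%) and at 47.5% of kept sites (44.1 to 50.8%). The overlap reached 50% of the wider peak at 868 of the 919 lost sites (94.5%) and at 779 of the 885 kept sites (88.0%). At the other 51 lost sites the peaks met over a smaller part. Wider peaks leave room for larger distances, and the part of the width difference in this result was not tested.

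The CP190 RNAi scores of kept sites were higher at the highest Kc scores than at the lowest. Kept sites are in the CP190 RNAi list by the rule, so these scores do not show how near lost sites came to a call. In the highest Kc score quintile, from 364.57 upwards, 171 regions were lost and 190 kept. The kept ones had a median CP190 RNAi score of 203.78 (quartiles 114.34 and 350.69), in a list whose lowest score was 50. Of these 190, 15 scored under 60 and 39 under 100. In the lowest Kc quintile the kept regions had a median CP190 RNAi score of 107.4. Of these 135, 11 scored under 60 and 60 under 100. Scores under the threshold are not listed, so whether lost sites had a weaker signal or none was not measured.

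Lost sites lay farther than kept sites from other Gcn5 peaks called after CP190 RNAi. The nearest CP190 RNAi peak was a median of 18418 bp away (quartiles 7509 and 37924.5 bp), whereas for kept sites the nearest CP190 RNAi peak outside the region was 4897 bp away (2275 and 13568 bp). Of the lost sites, 160 had a CP190 RNAi peak within 5 kb (17.4%, 15.0 to 20.02%), and of the kept sites 451 (51.0%, 47.6 to 54.3%). In the Kc control list lost sites were also more isolated, with a median gap of 8145 bp to the next Kc GFP RNAi peak against 4972 bp. In S2 the gaps to the next S2 peak were more alike, at 6090 bp and 5170 bp, and 44.1% (40.8 to 47.3%) and 49.2% (45.8 to 52.5%) had one within 5 kb.

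**Figure D4:**
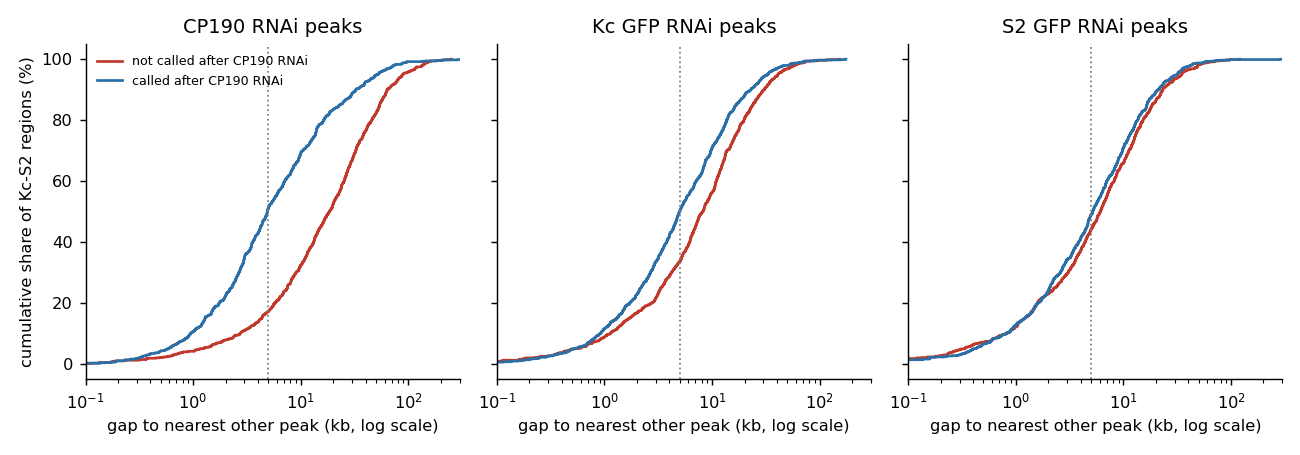
Cumulative share of lost (red) and kept (blue) sites against the gap in kb, on a log axis, to the nearest peak outside the region in the CP190 RNAi list (left), the Kc GFP RNAi list (middle) and the S2 list (right); the dotted line marks 5 kb. At 5 kb the curves stand at 17.4% and 51.0% for CP190 RNAi peaks, and at 44.1% and 49.2% for S2 peaks.

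The longer gap to CP190 RNAi peaks was also seen within each class of spacing in the Kc control list. Among regions with another Kc GFP RNAi peak within 5 kb, 309 lost sites had a median gap of 9838 bp to the nearest CP190 RNAi peak, and 444 kept sites 2724 bp. For regions whose next Kc peak was 10 to 20 kb away these medians were 19395.5 and 12001 bp. They were 11550 and 8084.5 bp at 5 to 10 kb, 35044.5 and 25354 bp at 20 to 50 kb, and 67289 and 56183 bp beyond. Spacing was not matched further within a class. The lost share itself rose from 41.0% (37.5 to 44.6%) of regions with a Kc neighbour within 5 kb to 63.0% (56.6 to 69.2%) at 20 to 50 kb. Among narrow Kc peaks it went from 65.8% (60.2 to 71.1%) to 86.0% (79.0 to 91.4%) over the same distances. Among wide ones it went from 23.7% (19.8 to 27.9%) to 32.4% (23.4 to 42.3%), with overlapping intervals, and was already 33.0% at 5 to 10 kb. Beyond 50 kb the lost share was 61.7% of 47 regions, at 79.3% of the 29 narrow and 33.3% of the 18 wide ones.

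Neighbouring Kc-S2 regions tended to have the same fate. Of 1801 neighbouring pairs on an arm, 575 were both lost and 542 both kept, together 62.0% (59.7 to 64.3%), where the shares of the 2 fates alone would give 50.02%. The figure was 74.4% (69.2 to 79.2%) for the 309 pairs within 5 kb and 67.0% (62.9 to 70.9%) at 5 to 20 kb. It was 56.6% at 20 to 50 kb and 53.4% (48.9 to 58.0%) beyond, where the shares alone would give 50.6%. Peak width moved with this pattern. Among the 530 pairs of narrow peaks 70.8% had the same fate (66.7 to 74.6%), against 65.3% from the shares, and among the 529 pairs of wide peaks 68.8% (64.7 to 72.7%) against 62.5%. Successive pairs share a region, so pairs are not independent and the intervals given for pairs are likely too narrow.

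The lost sites formed 344 uninterrupted runs along the arms, of which 46 held at least 5 sites and 10 held at least 10. The kept sites formed 343 runs, of which 55 held at least 5 sites and 4 held at least 10. The longest run of lost sites was on 2L at 19816733 to 20415506, with 18 lost sites in a row over 598.774 kb. Their Kc scores ranged from 78.11 to 768.25 and their Kc widths from 986 to 1989 bp. Gcn5 peaks were not missing from this stretch after CP190 RNAi. It held 11 CP190 RNAi peaks, of which 8 lay in regions of both Kc lists without an S2 peak, 2 were found after CP190 RNAi alone and 1 was shared with S2 alone. The next run, of 15 lost sites on 3L at 6553204 to 7137089, contained 10 CP190 RNAi peaks and 7 regions of both Kc lists. A run of 14 on 2L at 13911347 to 14288654 contained 3 CP190 RNAi peaks, none of them at a Kc GFP RNAi site, so the runs differed in how many peaks they still held. The longest run of kept sites counted 13, on 3R at 5321999 to 5605658, with Kc widths of 1250 to 4245 bp.

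In windows of 100 kb, 270 of 756 held no lost site and 230 held 1. The largest number was 8, on 2L at 20200001 to 20300000, inside the longest run. All 8 Kc-S2 regions there were lost, 1 further Kc region had neither an S2 nor a CP190 RNAi peak, and the window held no CP190 RNAi region. The window on 3R at 22800001 to 22900000 had 7 Kc regions, all lost sites, 9 S2 regions and no CP190 RNAi region. Of the 3 windows with 6 lost sites, the one on 3R at 2000001 to 2100000 had no CP190 RNAi region, the one at 500001 to 600000 had 2, and the one on 3L at 4400001 to 4500000 had 3.

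On the scale of megabases the lost share varied along each arm. Each arm was cut into 10 equal segments, of 2.301 Mb on 2L, 2.45 Mb on 3L and 2.79 Mb on 3R. On 2L the lost share was 28.6% in the fifth segment from the telomere (20 of 70, 18.4 to 40.6%) and 73.8% in the seventh (31 of 42, 58.0 to 86.1%). On 3L it was highest in the third segment (67.2%, 54.6 to 78.2%) and lowest in the seventh (36.0%, 25.2 to 47.9%). On 3R, counted from the centromere, it was 63.4% in the first segment (52.0 to 73.8%), 35.6% in the second (24.7 to 47.7%) and 69.6% in the ninth (54.2 to 82.3%). Apart from the first on 3R, these segments were named because they had the lowest or highest share of their arm. The intervals of most other segments included the overall 50.9%. Peak width was not taken into account here. The segments next to the centromere gave 12 of 35 on 2L, 15 of 25 on 3L and 52 of 82 on 3R, with no common direction.

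**Figure D5:**
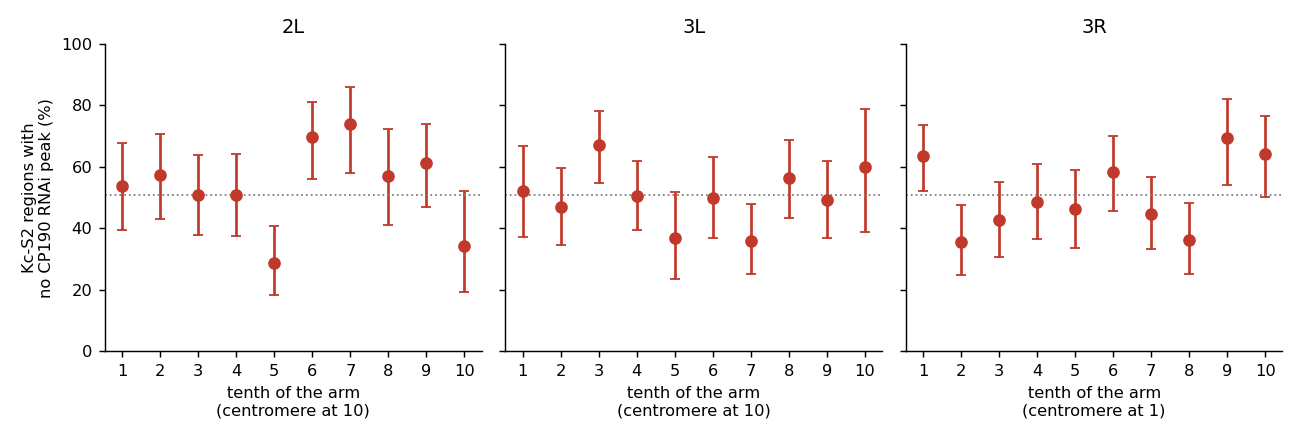
Share of Kc-S2 regions with no CP190 RNAi peak in 10 equal segments of 2L, 3L and 3R, with exact 95% intervals for counting error; the dotted line is the overall 50.9%. The segments range from 28.6% to 73.8%, both on 2L.

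Fewer lost than kept sites lay close to another CP190 RNAi peak, and both groups held low Kc scores. Of the 919 lost sites, 39 had a CP190 RNAi peak within 1 kb (4.24%, 3.03 to 5.76%). Of the 885 kept sites, 94 had one within 1 kb outside the region (10.6%, 8.67 to 12.8%). By score, 660 of the 919 lost and 714 of the 885 kept sites reached 100 in Kc. The other lost sites lay between 50.08 and 100. The gap from the edge of the whole region to a CP190 RNAi peak was smallest at 5 lost sites. On 2L they were at 5948325 to 5949806 (region 5944505 to 5950608) with 22 bp and at 3655535 to 3658046 with 109 bp. On 3L, 20398883 to 20400292 had a gap of 37 bp. On 3R they were at 27563702 to 27564691 (region 27563448 to 27564848) with 133 bp and at 12175864 to 12177614 with 134 bp. The Kc scores of these 5 sites ran from 58.69 to 371.44. On the other side of the border, 5 kept sites had no direct contact between a Kc GFP RNAi and a CP190 RNAi peak and were joined only through a wide S2 peak. They lay at 3L 9203904 to 9205230, 10690882 to 10691834 and 14047228 to 14048508, and at 3R 11505373 to 11506351 and 21928841 to 21931166. Their S2 peaks were 2816 to 5564 bp wide and their CP190 RNAi scores 52.24 to 127.66. Lost sites made of 2 Kc peaks numbered 5 of 919 (0.54%), while 44 of the 885 kept sites held 2 or more (4.97%). The 5 lost ones lay at 3L 711253 to 712923 and, on 3R, at 12130448 to 12131567, 15884311 to 15885441, 22851890 to 22852930 and 26410197 to 26411114.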

How the data were processed

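The deposited files are 1 peak list for each of the 3 Gcn5 libraries, with a position, a name and a score per peak. The submitters' processing notes name dm3 as the build, and Bowtie, MACS, bedtools and HOMER among the tools, without saying what each did. Versions and calling thresholds were not given in the sources used here, and the 3 input libraries were not analysed. The score is the authors' deposited value, whose scale the files do not state. Scores were ranked and compared only among peaks of the same list, and a fixed score filter was used in the alternatives. The same score need not mean the same enrichment in different lists. The lists hold no read counts, so the depth is unknown and a missing peak is one that was not called.

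Peaks on 2L, 3L and 3R were merged where they overlapped by 1 bp or more (Python 3.11.15, pandas 2.3.3, SciPy 1.17.1), which was tested on simulated data. Gaps run from region edge to the nearest peak of another region. Shares have exact (Clopper-Pearson) 95% intervals. Arm length is the farthest peak end.

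The sites and the comparisons were chosen with earlier results of these data known. Named sites are the 10 lost sites with the highest Kc and the 10 with the highest S2 score, the 5 widest, the 5 nearest each side of the rule's border, those with most Kc peaks, the 3 richest windows with ties, and the longest runs. The runs of 15 and 14 sites, the score tertiles, the spacing classes and the splits at the median width were chosen after their values were seen. Planned comparisons of promoters, gene lists and motifs needed a dm3 reference and were not run.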

Additional observations from a re-analysis of the deposited data

How the results depend on the processing

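The number of lost sites was 901 and 854 when peaks were joined across gaps of up to 200 and 1000 bp, and 719 with lists of equal length (2274 peaks each). It fell to 611 with a score of 100 or more in both control lists, and was 279, 302 and 338 on 2L, 3L and 3R alone. The share of Kc-S2 regions that were lost, 50.9%, rose to 63.5% with a score of 100 or more in all 3 lists, which also removes weak CP190 RNAi peaks. Counted per Kc peak, it was 54.0% with 50% reciprocal overlap, 60.6% with centres within 250 bp and 51.5% with direct overlap. The lost minus kept difference in Kc score was -7.44 on 3L alone. It stayed below 0 under the other alternatives run, from -54.765 to -10.18, but its interval from the order statistics of both medians (-59.58 to -8.21 around the reported -35.29) reached above 0 on 2L, on 3L, with the score of 100 and with lists of equal length. The width differences, the S2 score difference, the share of neighbours with the same fate and the share with a CP190 RNAi peak within 5 kb stayed within their intervals under every alternative run for them. No paired analysis was possible because there is only 1 library for each treatment. The S2 and top-100 alternatives and the direct overlap were chosen after seeing the data. Depth and enrichment of the libraries cannot be seen in peak lists, and their part in any missing call was not tested. The alternatives planned for the share of sites at promoters were not run, for want of a dm3 reference here.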

Other observations

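Kc GFP RNAi sites that lacked both an S2 peak and a CP190 RNAi peak differed from the lost sites in strength and surroundings. These 347 regions were about as narrow, with a median Kc width of 1133 bp against 1116 bp. Their median Kc score was 75.65 (quartiles 61.89 and 108.505), against 167.44 for the lost sites. The nearest CP190 RNAi peak lay a median of 7179 bp away, and 146 of the 347 had one within 5 kb (42.1%, 36.8 to 47.5%), against 17.4% of the lost sites (15.0 to 20.02%). The nearest other Kc GFP RNAi peak was a median of 6079 bp away, against 8145 bp.

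The 669 Kc sites without an S2 peak that were still called after CP190 RNAi had a median Kc width of 1447 bp and a median Kc score of 107.99. Of these, 348 had another CP190 RNAi peak within 5 kb (52.0%, 48.2 to 55.9%). Kc sites without an S2 peak thus also differed in width by whether a CP190 RNAi peak was called, at 1133 and 1447 bp. These medians describe 1 library each and were not tested.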
